A study of Mus musculus with 40 samples.

Results

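The regions described here are the places of the mouse genome that carried H3K27ac, H3K4me1 or both marks in wild-type haematopoietic stem and progenitor cells. Peaks of the wild-type H3K27ac list (43363 peaks) and of the wild-type H3K4me1 list (73506 peaks) were merged wherever they shared at least 1 bp. Each merged region was then classed as H3K27ac only, H3K4me1 only or both, and split into promoter regions, within 1 kb of the start site of a protein-coding gene, and distal regions, farther away. The rule gave 96077 regions, while merging all 12 deposited lists of the study by the same step gave 184295. The study mapped both marks by ChIPmentation in stem cells and progenitors (HSCs and HPCs) sorted from mice of 6 genotypes at an age of 21 days (P21). In ChIPmentation, the chromatin pulled down with an antibody is cut and tagged with sequencing adapters by the transposase Tn5. Of the 40 samples, 39 carried a mark and fell into 12 groups, and 1 input sample was not analysed here. Wild-type mice (labelled wildtype) gave 3 samples for each mark, and the other genotypes, used below only to look the wild-type regions up, were Flt3-ITD, Runx1-het, NUP98-HOXD13 and the combinations Flt3-ITD/Runx1-het and Flt3-ITD/NUP98-HOXD13. The source names of the Runx1-het groups join Runxf and Vav, and no source used here describes their alleles.

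H3K4me1 is laid down at enhancers, including enhancers that are not yet in use and are then called primed. H3K27ac is added by acetyltransferases such as p300 and CBP and marks promoters and enhancers in use, so an enhancer with both marks is usually called active. Start sites in use carry H3K4me3 in place of H3K4me1, and H3K4me1 is found beside them. Stem and progenitor cells of the blood are known for H3K4me1 at genes of lineages they have not yet entered. "Active" and "primed" are used below as names for combinations of marks: transcription was not measured in these files.

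Each list was called on the pooled samples of a group, so there is no value per sample, the spread between mice cannot be given, and no p-value was computed. Shares carry 95% Wilson intervals, which cover counting error only. Read depth is unknown from these files. Fold is the authors' fold enrichment at the summit of a peak, and it was compared only between peaks of the same list. The wild-type H3K27ac list covered 28.0 Mb. Its peaks had a median width of 389 bp and a median fold of 4.34 (1.80 to 59.3). The H3K4me1 list covered 35.2 Mb with a median width of 392 bp and a median fold of 4.43 (1.88 to 17.2). A q-value over 0.05 went with 8.40% of the H3K27ac peaks (3644) and with 1.26% of the H3K4me1 peaks (926).

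The upstream sequences of 7 promoters show the range of base composition behind the promoter states. They were chosen after their values were seen, as strong or well-known examples of each state. Each is the 200 bases before the start site in the RefSeq promoter table (GRCm38.p6), read 5′ to 3′ on the strand of the gene, and capitals mark CpG dinucleotides. The state given is that of the peaks within 1 kb of that start site. Ikzf1 (Ikaros, a lymphoid and progenitor transcription factor, chr11:11685725-11685924, plus strand), Mecom (the stem cell factor EVI1, chr3:30509761-30509960, minus strand) and Erg (an ETS factor of stem cells, chr16:95459350-95459549, minus strand) had H3K27ac without H3K4me1, with folds of 14.4, 13 and 59.3. Flt3 (the receptor kinase of early progenitors, chr5:147400491-147400690, minus strand) and Lck (a kinase of the T cell receptor, chr4:129573643-129573842, minus strand) had both marks. Vsir (the immune checkpoint protein VISTA, chr10:60346651-60346850, plus strand) and Rag1 (a subunit of the V(D)J recombinase, chr2:101649534-101649733, minus strand) had H3K4me1 alone.
Ikzf1: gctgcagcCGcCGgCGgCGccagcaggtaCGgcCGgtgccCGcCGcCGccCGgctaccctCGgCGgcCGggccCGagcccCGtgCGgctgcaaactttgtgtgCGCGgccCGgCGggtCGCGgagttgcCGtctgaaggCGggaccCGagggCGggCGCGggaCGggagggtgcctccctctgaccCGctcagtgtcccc
Mecom: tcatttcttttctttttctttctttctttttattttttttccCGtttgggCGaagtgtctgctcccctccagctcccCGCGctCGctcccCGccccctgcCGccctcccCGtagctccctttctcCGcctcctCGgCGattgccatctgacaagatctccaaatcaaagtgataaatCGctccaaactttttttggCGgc
Erg: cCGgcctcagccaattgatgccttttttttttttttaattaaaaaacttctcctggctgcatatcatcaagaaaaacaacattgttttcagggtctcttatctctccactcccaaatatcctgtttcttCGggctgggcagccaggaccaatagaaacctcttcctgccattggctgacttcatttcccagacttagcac
Flt3: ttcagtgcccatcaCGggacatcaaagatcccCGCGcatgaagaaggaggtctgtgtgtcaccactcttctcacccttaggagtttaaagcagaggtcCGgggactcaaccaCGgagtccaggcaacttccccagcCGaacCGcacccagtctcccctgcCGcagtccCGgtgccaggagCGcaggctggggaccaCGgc
Lck: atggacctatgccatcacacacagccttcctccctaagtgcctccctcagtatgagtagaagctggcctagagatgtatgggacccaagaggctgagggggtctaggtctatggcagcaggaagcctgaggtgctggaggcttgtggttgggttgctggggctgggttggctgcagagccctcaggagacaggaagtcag
Vsir: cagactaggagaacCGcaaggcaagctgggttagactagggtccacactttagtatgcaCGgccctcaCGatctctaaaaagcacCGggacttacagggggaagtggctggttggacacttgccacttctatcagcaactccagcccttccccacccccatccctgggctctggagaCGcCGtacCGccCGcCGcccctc
Rag1: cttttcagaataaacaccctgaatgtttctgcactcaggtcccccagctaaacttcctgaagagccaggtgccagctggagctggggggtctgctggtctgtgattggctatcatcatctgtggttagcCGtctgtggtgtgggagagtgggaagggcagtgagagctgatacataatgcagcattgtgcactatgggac
The Ikzf1 stretch held 30 CpG, Mecom 13, Flt3 11 and Vsir 9, while Erg held 2, Rag1 1 and Lck 0. The promoter with the highest H3K27ac fold in the list, the Erg promoter shown here, was thus CpG-poor. So was that of Lck, where H3K4me1 reached its highest fold of any peak, 17.2, beside an H3K27ac fold of 15.5.

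The most numerous class was that of distal H3K4me1 regions without H3K27ac. This primed class held 51677 regions, which is 53.8% of all regions. Active distal regions with both marks numbered 12961 (13.5%), and 17556 distal regions (18.3%) had H3K27ac only. At promoters the order differed, with 8229 regions of H3K27ac only (8.57%), 2974 with both marks (3.10%) and 2680 of H3K4me1 only (2.79%). With the H3K4me1 list shortened to 43363 peaks, or with a limit of 2 kb from a start site, the primed class (27880 and 47888 regions) was still the most numerous but no longer the majority. The smaller classes changed places in some settings: promoter H3K4me1-only regions outnumbered those with both marks at 2 kb (6469 against 3681), and distal regions with both marks outnumbered those with H3K27ac only where peaks within 500 bp were merged (11897 against 11149). Of the regions with H3K27ac only, 31.9% (31.3 to 32.5%) were promoter regions, against 18.7% (18.1 to 19.3%) of those with both marks and 4.93% (4.75 to 5.12%) of those with H3K4me1 only.

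Read from the side of H3K27ac, 42.5% (41.9 to 43.0%) of distal and 26.5% (25.7 to 27.4%) of promoter H3K27ac regions also held H3K4me1. The gap depended on the setting: the shares were 51.6% and 48.4% with peaks within 500 bp merged, and 41.1% and 16.2% with −log10 q of at least 5. Read from the side of H3K4me1, 20.1% (19.7 to 20.4%) of distal but 52.6% (51.3 to 53.9%) of promoter regions also held H3K27ac. Close to the 1 kb limit the classes changed gradually. Among the 3396 regions between 500 bp and 1 kb from a start site, 48.4% had H3K4me1 only and 35% H3K27ac only, and among the 3039 regions between 1 kb and 1500 bp these shares were 64.8% and 21.8%. Overlaps near the limit of 1 bp were a small part of the whole: 1435 of 17578 overlapped H3K27ac peaks (8.16%) shared under 100 bp with H3K4me1, and 1264 of 25785 peaks without overlap (4.90%) lay within 100 bp of an H3K4me1 peak.

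**Figure D1:**
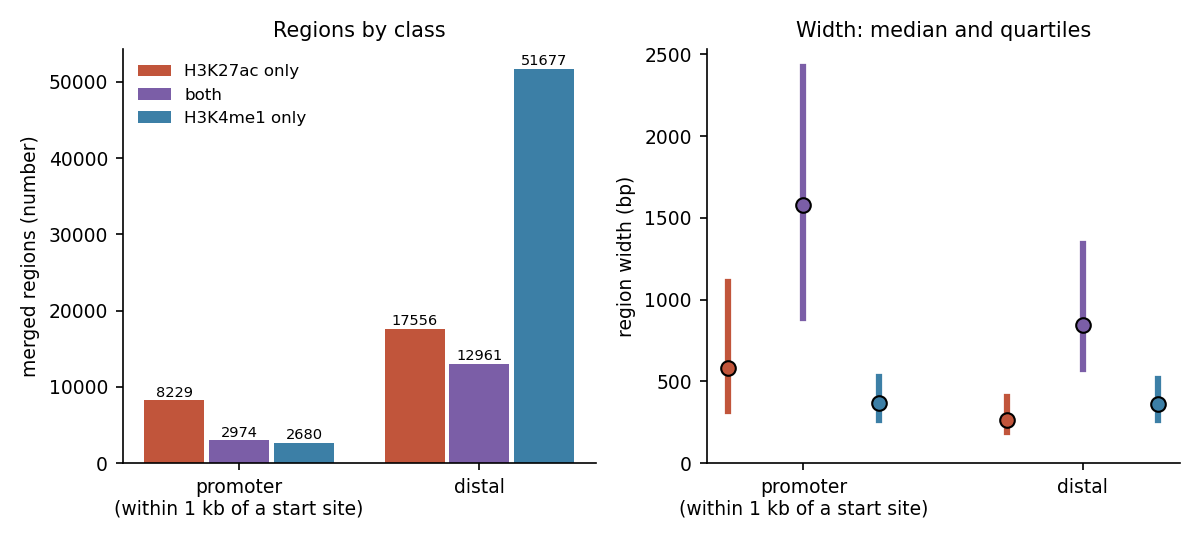
Number of merged wild-type regions (left) and their width in bp (right, point for the median and bar from the lower to the upper quartile) by class, for promoter and distal regions. The distal H3K4me1-only bar, 51677 regions, is the highest, and regions with both marks are the widest on either side.

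Regions with both marks were wider and, within each list, of higher fold. The median width of distal regions was 844 bp with both marks, 362 bp with H3K4me1 only and 266 bp with H3K27ac only. At promoters it was 1580, 368 and 581 bp in the same order. The median H3K27ac fold at distal regions was 4.84 with H3K4me1 and 3.86 without, and at promoters 7.97 and 5.38. The median H3K4me1 fold at distal regions was 5.04 with H3K27ac and 4.21 without, and at promoters 4.76 and 4.21. Under the rule a wide region meets a peak of the other mark more easily, so width and class are linked by construction.

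Overlap of the marks rose with the strength of a peak. When all H3K27ac peaks were ranked by fold and cut into 10 groups of equal size, H3K4me1 overlapped 25.2% (23.8 to 26.6%) of the distal peaks of the weakest group and 78.1% (76.0 to 80.1%) of those of the strongest group. At promoters the shares were 12.1% and 43.9%. Of distal H3K4me1 peaks, 15.4% (14.6 to 16.3%) of the weakest and 48.9% (47.7 to 50.1%) of the strongest group were overlapped by H3K27ac. Peak width moved with these shares: the median width of distal H3K27ac peaks went from 213 bp in the weakest to 1860 bp in the strongest group, and its part in the result was not tested. Weak peaks also sat in a given class. A q-value over 0.05 went with 14.4% (13.8 to 14.9%) of the distal H3K27ac peaks alone and with 5.03% (4.68 to 5.39%) of those beside H3K4me1.

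**Figure D2:**
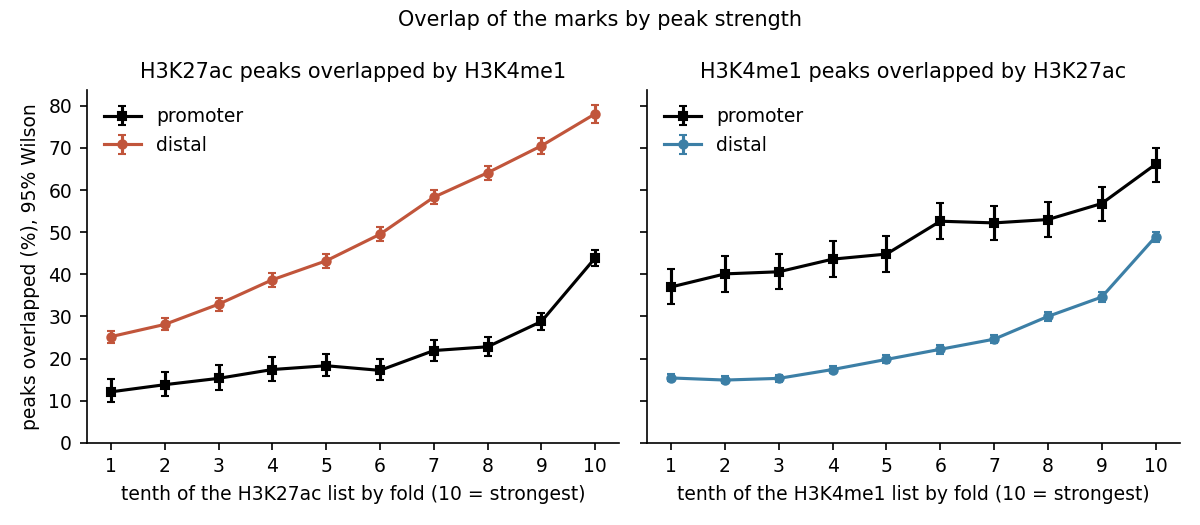
Share of H3K27ac peaks overlapped by H3K4me1 (left) and of H3K4me1 peaks overlapped by H3K27ac (right), in %, for 10 groups of equal size ranked by fold, with 95% Wilson intervals. Distal H3K27ac peaks go from 25.2% in the weakest to 78.1% in the strongest group, above the promoter peaks in every group, while for H3K4me1 peaks the promoter line is the upper one.

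H3K4me1 was missing from the start sites themselves and stood beside them. Of 41422 distinct protein-coding start sites, 26.4% were covered by an H3K27ac peak at the first base and 0.782% by an H3K4me1 peak. H3K4me1 coverage rose to 5.49% at 1000 bp upstream and to 9.35% at 1500 bp downstream. At the 16262 start sites with an H3K27ac peak within 1 kb the pattern was steeper, with H3K27ac over 67.3% of the start sites, and H3K4me1 over 1.14% at the start site, 10.9% at 1000 bp upstream and 20.1% at 1500 bp downstream. A promoter region classed as H3K27ac only was often flanked by H3K4me1. Of these regions, 37.8% (36.8 to 38.9%) had an H3K4me1 peak within 1 kb and 56.8% (55.8 to 57.9%) within 2 kb. Distal regions with H3K27ac only had such a peak about as often within 1 kb (interval of 36.3 to 37.7%). Within 2 kb the distal share was lower, at 49.5% (48.7 to 50.2%). Within 500 bp it was higher, with an interval of 23.4 to 24.7% against 19.6 to 21.3% at promoters. Flanking within 1 kb was thus not particular to promoters. Where a region held both marks, the summits lay a median of 529 bp apart at promoters and 194 bp apart at distal regions.

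**Figure D3:**
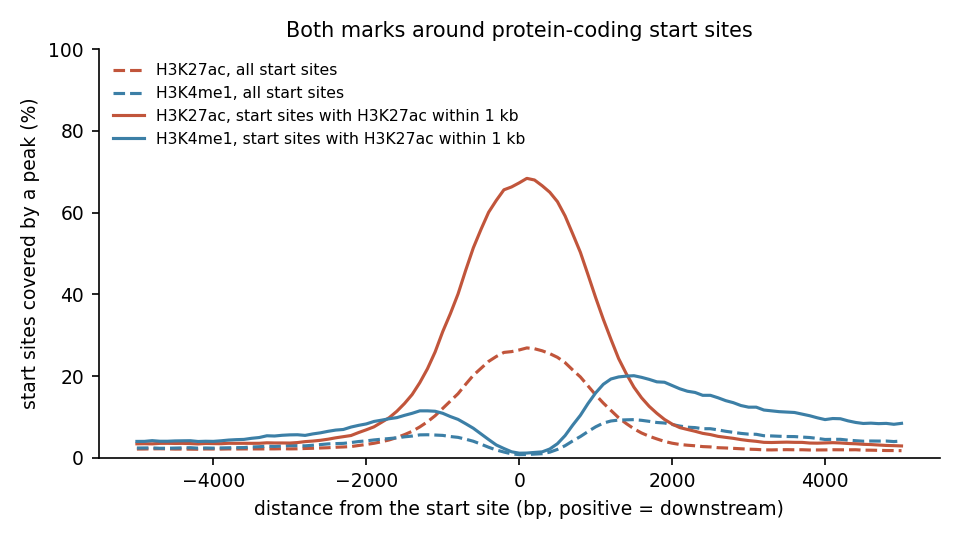
Share of protein-coding start sites covered by a peak of H3K27ac (red) or H3K4me1 (blue), in %, by distance from the start site in bp. Dashed lines are all 41422 start sites and solid lines the 16262 with H3K27ac within 1 kb, where H3K27ac covers 67.3% of start sites and H3K4me1 dips to 1.14% between an upstream and a higher downstream shoulder.

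The regions of highest fold in each class are given with their nearest protein-coding gene. Of promoter regions with H3K27ac only, the first was at Zfp36l2, an RNA-binding protein that promotes mRNA decay (fold 53.7, chr17:84184189-84187263). It was followed by Usp38, a deubiquitinase (48.5), Hlcs, which attaches biotin to carboxylases (43.9), Wbp11, a splicing factor (41.2), and Dnajb6, a co-chaperone (40.8). Of promoter regions with both marks, the first was a region of 9536 bp at Erg (H3K27ac fold 59.3, H3K4me1 fold 5.87, chr16:95450537-95460072). It reached into the gene from the Erg start site whose upstream sequence is shown above, which is not the only start site of Erg. Its H3K4me1 lay more than 1 kb from that start site, which is why this promoter of Erg is given above as H3K27ac only. The next were Ranbp2, a nucleoporin (56.4), Unk, an RNA-binding zinc finger protein (52.4), Isca1, which assembles iron-sulphur clusters (51.4), and Aftph, a trafficking protein (50.1). Region class and promoter state differed at other genes too. Within 1 kb of the start site, Ranbp2 had H3K27ac only, while Hlcs had both marks, with an H3K4me1 fold of 4.48. Promoter regions with H3K4me1 only were led by Uhmk1, a kinase (H3K4me1 fold 11.4), Vsir (10.3), the polymerase subunit gene Polr2h, the mitotic kinesin gene Kif23 and the complement regulator gene Cr1l (each 10.0). All 5 lay between 0.428 and 0.831 kb from the start site, not on it.

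Among distal regions with both marks the first lay between Flt3 and its neighbour Pan3, a subunit of a deadenylase (H3K27ac fold 48.9, H3K4me1 fold 8.91, chr5:147424414-147428359, 1.80 kb from the Pan3 start site). Others followed near Zfp958 (45.8), Sirt4, a mitochondrial sirtuin (45.8), Chd2, a chromatin remodeller (45.5, a region of 8543 bp), and Tubd1, a tubulin (40.9). Distal H3K4me1-only regions were led by sites near Lpin2, a phosphatidate phosphatase (H3K4me1 fold 12.9, chr17:71162254-71162865), Hsbp1 (12.8), Errfi1, a feedback inhibitor of EGFR (12.8), Mn1, a transcriptional coregulator (12.2), and Dap (12). Of the first 5 distal regions with H3K27ac only, those near Tex14 (44.6), Pisd (43.9) and Gm26992 (39.6) lay at start sites of other annotated genes, namely the U1 small nuclear RNA gene Rnu1a1, Gm43852, and Jpx, a noncoding RNA of the X inactivation centre. The regions near Ubash3b (37.9) and Mnt (36.6) had no such start site. Over the strongest of the 10 groups of H3K27ac peaks, 68 of 340 distal peaks without H3K4me1 (20.0%, 16.1 to 24.6%) lay within 1 kb of the start site of any annotated gene, against 149 of 1213 with H3K4me1 (12.3%, 10.6 to 14.3%). In the weaker groups these shares were 5.38% (5.06 to 5.73%) and 5.05% (4.69 to 5.43%).

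Distal regions of every class lay mainly in introns. The share in introns was 54.1% (53.3 to 54.8%) for H3K27ac only, 60.7% (59.8 to 61.5%) for both marks and 62.3% (61.8 to 62.7%) for H3K4me1 only. The median distance to a protein-coding start site was 28.4, 24.3 and 21.3 kb in the same order.

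Of 21840 protein-coding genes, 8598 (39.4%) had H3K27ac within 1 kb of a start site. In 5124 (23.5%) it stood without H3K4me1 and in 3474 (15.9%) with it, while 1058 (4.84%) had H3K4me1 only and 12184 (55.8%) neither mark. Distal regions, assigned to the nearest start site up to 50 kb away, went with the promoter state. Genes with both marks at the promoter had on average 0.999 active and 3.57 primed distal regions, and genes with H3K27ac only 0.630 and 2.56. Genes with H3K4me1 only had 0.529 and 2.35, and genes with neither mark 0.144 and 0.701. The averages for H3K4me1 only were thus close to those for H3K27ac only.

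The states also differed in base composition. CpG density was measured as observed over expected CpG in the first 200 bases of the annotated transcripts, which were found for 99.6 to 100% of start sites. Its median was 0.799 for H3K27ac only, 0.765 for both marks, 0.537 for H3K4me1 only and 0.383 for neither, and 0.576 over all start sites. A value of at least 0.6 was reached by 74.8% (74.0 to 75.7%), 69.5% (68.3 to 70.7%), 44.9% (42.7 to 47.0%) and 30.8% (30.2 to 31.4%) in the same order.

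Motifs were searched on both strands in the 300 bases of the RefSeq promoter windows, from 250 before to 50 after the start. A RefSeq window was found for 81.6% of genes with H3K27ac only and for 81.4% of genes with both marks, but only for 78.2% with H3K4me1 only and 74.7% with neither, so the last pair fell short of the 80% needed and their shares are not given. The SP-KLF motif CCCGCCC was in 51.2% (49.9 to 52.6%) of windows with H3K27ac only, 44.0% (42.1 to 45.8%) with both marks and 35% of all 20143 windows. The windows of all genes were found for 77.5%, so the shares over all windows describe the windows at hand and are no comparison. The NRF1 motif GCGCANGCG was in 16.1% (15.1 to 17.1%), 14.8% (13.5 to 16.2%) and 8.90%. In the other direction, the ETS motif AGGAAG was in 31.9% (30.6 to 33.1%) with H3K27ac only, 36.2% (34.5 to 38.0%) with both marks and 34.2% of all. The RUNX motif TGTGGT was in 11.5% (10.6 to 12.4%), 13.9% (12.6 to 15.2%) and 14.7%, and the IRF motif GAAANNGAA in 6.81% (6.16 to 7.52%), 9.08% (8.08 to 10.2%) and 8.21%. The intervals of the 2 states did not overlap for SP-KLF, ETS, RUNX and IRF, and for AP-1 (TGANTCA), at 3.86% (3.37 to 4.41%) and 5.30% (4.53 to 6.19%). AP-1 was in 7% of all windows at hand. The intervals overlapped for the other 9 of the 14 motifs: that of the GATA family (AGATAA), CEBP (TTGCNNAA), an E-box (CAGCTG), HOX-MEIS (TGATTNAT), ETS-IRF (GGAAGTGAA, which shares GGAAG with the ETS motif), NRF1, NFY (CCAAT), CTCF (CCAGNNGGC) and MYC (CACGTG). A match is a run of letters and does not show that a factor was bound.

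Transcription factor genes of stem cells were marked at every promoter and were surrounded by active and primed regions. All 20 genes of the list had promoter H3K27ac, 12 without and 8 with H3K4me1, against 39.4% of all genes. Their distal regions numbered 109 with both marks, 266 with H3K4me1 only and 105 with H3K27ac only, so 29.1% (24.7 to 33.9%) of their distal H3K4me1 regions held H3K27ac, against 19.8% (19.4 to 20.2%) over all genes. Erg had the highest promoter fold (59.3) and 11 active and 12 primed regions. Meis1, a homeodomain partner of HOX proteins, followed (40.2, with 6 and 18), then Lmo2, the bridge of the GATA-TAL1 complex (22.9, with 7 and 13). Runx1 had a promoter fold of 7.23 and 12 active, 34 primed and 19 H3K27ac-only regions. Mecom had 10, 34 and 15, Fli1, an ETS factor, 21, 23 and 12, and Etv6, another ETS factor, 7, 25 and 4. Hoxa9 and Prdm16 had no active distal region, and Hoxb4 1.

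Genes of stem and progenitor surface proteins were divided. Of 15, 8 had promoter H3K27ac (53.3%, against 39.4% of all genes), 5 had H3K4me1 only and 2 neither mark, and 33.3% (25.5 to 42.2%) of their distal H3K4me1 regions held H3K27ac. Flt3 (H3K27ac fold 23.5) was surrounded mainly by active regions, 12 against 2 primed and 7 with H3K27ac only. Over all genes, primed distal regions outnumbered active ones, 36523 against 9013. They also did at Kit, the stem cell factor receptor (7.64, with 9 against 2), Cd34 (15 against 2) and Ifngr1, an interferon gamma receptor chain (16 against 4). At Cxcr4, the receptor that holds stem cells in the marrow, the counts were closer (12 against 9). Cd27, a receptor of the TNF receptor family, had H3K27ac only (7.02), as did Kit. The 5 promoters with H3K4me1 only were those of Procr (6.12) and Slamf1 (4.43), markers of long-term stem cells, Esam (5.59), Il6ra (4.21) and the G-CSF receptor gene Csf3r (3.38). Ly6a, which encodes Sca-1, and Tek, the angiopoietin receptor, had neither mark.

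Promoter H3K27ac was at 11.1% of granulocyte and 31.2% of monocyte and macrophage genes, against 39.4% of all genes. Of 18 granulocyte genes, 2 had it: Gfi1, a repressor needed for neutrophils (7.64, with 11 active and 19 primed distal regions), and Mpo, myeloperoxidase (5.41, with 0 and 6). H3K4me1 stood alone at Prtn3, proteinase 3 (5.87), and Cxcr2, a chemokine receptor (5.59). The other 14, among them Elane, S100a8, S100a9 and Cebpe, had neither. Cebpa, the factor that starts granulocyte commitment, had no promoter peak but 7 primed and 1 active distal regions. Of 16 monocyte and macrophage genes, 5 had promoter H3K27ac, with Lyz2, lysozyme, highest (8.53), then Klf4 (3.35), Cd68 (3.21), F13a1 (3.15) and Cx3cr1 (3.02). H3K4me1 stood alone at Ccr2 (5.98), Fcgr1 (4.76) and Cd14 (3.65), and Ccr2 had 11 primed and 1 active regions. Irf8, a monocyte and dendritic cell factor, had 8 primed and 1 active. The distal shares with H3K27ac were 27% (17.6 to 39.0%) for granulocyte and 19% (11.2 to 30.4%) for monocyte genes, intervals that include the 19.8% of all genes.

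Of 15 dendritic cell genes, 3 had promoter H3K27ac (20.0%, against 39.4% of all genes): Tcf4, the factor of plasmacytoid cells (11.6, with 5 active and 29 primed regions), Runx2 (6.80, with 16 and 24) and H2-Aa, an MHC class II chain (4.28). Clec9a (5.65), Itgax (5.31) and H2-Ab1 (3.93) had H3K4me1 only. Zbtb46, a factor of conventional dendritic cells, had no promoter peak and 8 primed but 0 active regions. The distal share was 25.2% (18.1 to 34.0%).

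In the B lymphoid list 7 of 17 promoters were acetylated, a share of 41.2% that is near the 39.4% of all genes. The 4 of highest fold were Dntt, terminal transferase (12.6, with 6 active and 7 primed regions), Rag2, the partner of Rag1 (11.3, with an H3K4me1 fold of 8.63), and the surrogate light chain genes Vpreb1 (9.61) and Igll1 (8.62). Bach2 (5.38), Blnk (3.45) and Cd79b (3.02) followed. Rag1, the neighbour of Rag2, had H3K4me1 only (6.70). Ebf1 and Pax5, the factors of B cell commitment, had neither mark at the promoter, and Foxo1 had 13 primed regions and no active one. The distal share was 18% (10.4 to 29.5%). Of 19 T and NK cell genes, Lck (15.5) and Klrb1c, NK1.1 (3.35), had promoter H3K27ac (10.5% of the list). H3K4me1 alone marked Prf1, perforin (5.31), Cd3d and Cd3g (3.65 each) and Eomes (3.38). Gata3, a factor of T cells, had no promoter peak but 4 active and 2 primed regions. The distal share was 22.9% (12.1 to 39.0%).

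Of 18 erythroid genes, 3 had promoter H3K27ac (16.7%, against 39.4% of all genes): Car2, carbonic anhydrase (11.5), Tfrc, the transferrin receptor (9.13), and Hbb-bt, a beta globin (5.11). Hbb-bt and Hbb-bs are near-identical copies, so reads may be split between them. Rhag (6.97) and Ermap (3.65) were among the genes with H3K4me1 alone. The distal share was 38.5% (26.5 to 52.0%), and of the 20 active regions, 9 were at Car2 and 4 at Hbb-bt. Gata1, Klf1 and Epor had neither mark at the promoter and no active region. Of 15 megakaryocyte genes, 7 had promoter H3K27ac (46.7%), each with H3K4me1, which 3474 of the 8598 acetylated promoters of all genes also carried. They were Plek (17.5), Nfe2, a platelet transcription factor (16.1), Pf4, platelet factor 4 (5.33), Gp9 (4.47), Selp (3.35), Itga2b (2.71) and Gp1ba (2.56). Ppbp (5.72), Itgb3 (4.44) and Rab27b (4.02) had H3K4me1 only, and Itgb3 had 13 primed and 4 active regions. The distal share was 25% (16.2 to 36.4%). Of 14 mast cell, basophil and eosinophil genes, Csf2rb (5.41) and Mitf (3.68, with 10 primed regions and 1 active) had promoter H3K27ac (14.3%), and Prg2 (5.87) and Cpa3 (5.59) H3K4me1 only. Their distal share was 13.2% (5.75 to 27.3%), or 5 of 38 regions.

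Genes that respond to signals were mostly acetylated at the promoter. Of 15 immediate early genes, 13 had promoter H3K27ac (86.7%, against 39.4% of all genes), led by Zfp36 (27.1), Dusp1 (19.2) and Jun (18.4), and Egr3 (4.21) and Atf3 (3.65) had H3K4me1 only. Fos (14.4) had 2 active and 12 primed regions. Of 15 interferon response genes, 12 had promoter H3K27ac, 8 of them with H3K4me1, led by Irf9 (11.6) and Isg15 (9.94). Eif2ak2, the kinase PKR (5.41), and Ifit3 (3.10) had H3K4me1 only, and Oas2 neither. The distal shares were 30.3% (22.1 to 40%) and 31.1% (19.5 to 45.7%).

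The remaining lists held ubiquitous genes, genes not expressed in blood, and stromal and endothelial genes. They cannot tell stem and progenitor cells from other blood cells, so they do not check the label of the cells. All 14 ubiquitous genes had promoter H3K27ac, and 0 of 18 genes not expressed in blood did. With 3 genes taken as the upper limit of a count of 0, this allows a share of up to 16.7%, which is not a Wilson limit. Olig2, a neural factor, had H3K4me1 only (4.48). The ubiquitous genes' distal share was 24.4% (13.8 to 39.3%), and the genes not expressed in blood had 4 distal H3K4me1 regions, 0 of them with H3K27ac. No stromal gene of 9 had promoter H3K27ac, and Pdgfrb had H3K4me1 only (3.21), with a distal share of 15.4% (4.33 to 42.2%). Of 11 endothelial genes, 4 had promoter H3K27ac (36.4%, near the 39.4% of all genes): Robo4 (10.2), Pecam1 (7.64), Emcn (6.59) and Egfl7 (4.84). The source of this H3K27ac was not tested. The endothelial genes Cdh5, Kdr, Tie1, Sox17, Cldn5, Plvap and Nos3 had neither mark at the promoter. The endothelial distal share was 37% (24.5 to 51.4%), with 8 of 17 active regions at Egfl7 and 5 at Pecam1.

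**Figure D4:**
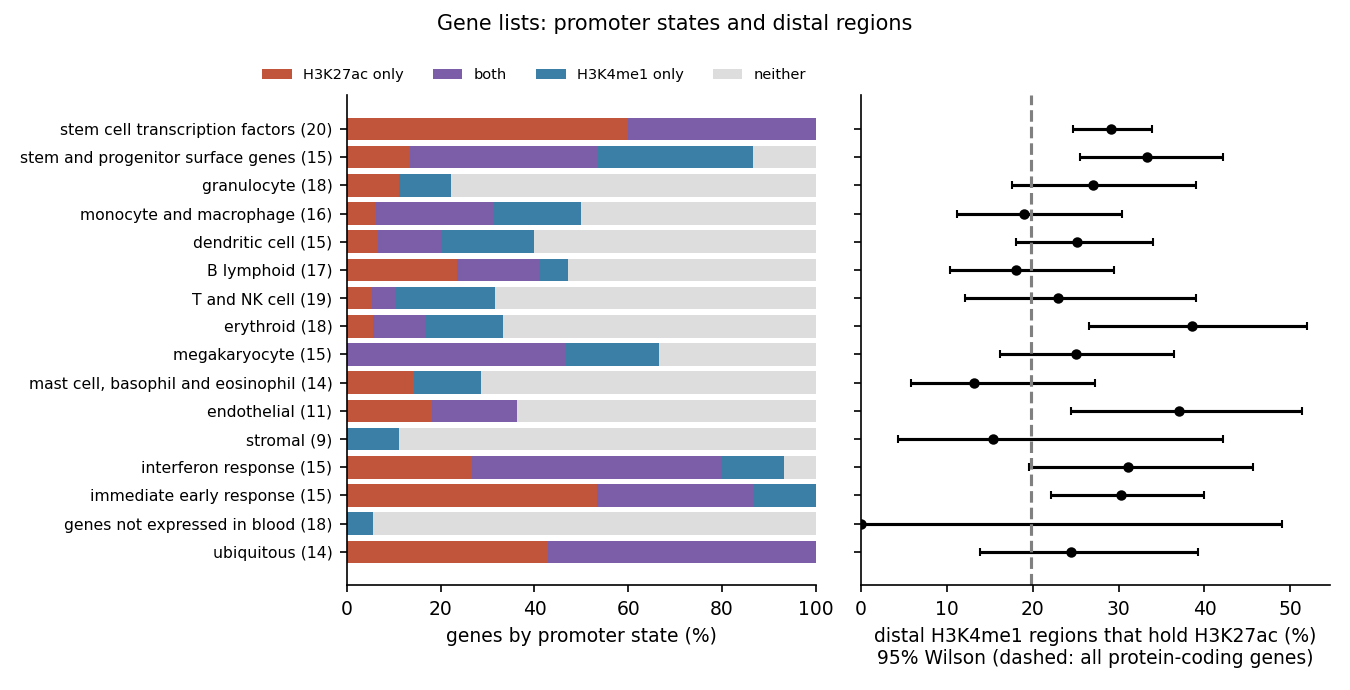
Promoter states of the genes of 16 lists in % of the genes of a list (left, number of genes in parentheses), and share of distal H3K4me1 regions that held H3K27ac (right, in %, with 95% Wilson intervals and a dashed line at 19.8% for all protein-coding genes). All 20 stem cell transcription factor genes and all 14 ubiquitous genes have promoter H3K27ac, while grey, neither mark, makes up most of the granulocyte, T and NK cell, erythroid and mast cell lists.

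Among the Hox clusters, promoter H3K27ac was limited in these lists to Hoxa7 (15.6), Hoxa9 (13.9), Hoxa3 (8.21) and Hoxb4 (3.35), each with H3K4me1. This was 3 of 11 Hoxa (27.3%), 1 of 10 Hoxb, 0 of 9 Hoxc and 0 of 9 Hoxd genes. The share over all genes was 39.4% (8598 of 21840), and each cluster holds few genes. Primed distal regions were given to 5 Hoxa genes, with 2 at Hoxa4, and to Hoxb1, Hoxb13, Hoxc4, Hoxd3, Hoxd8 and Hoxd13. Active regions were given to Hoxa10, Hoxb4 and Hoxb5. Large families set the outer limits: 79 of 83 cytosolic ribosomal protein genes and 52 of 67 replication-dependent histone genes had promoter H3K27ac, against 12 of 1133 olfactory receptor genes, 1 of 330 vomeronasal receptor genes and 0 of 53 keratin genes.

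The genes with the most active distal regions were Foxp1, a forkhead factor, and Sgms1, a sphingomyelin synthase (28 each), followed by Pik3r1, the regulatory subunit of PI3 kinase (26), Fam107b and the phosphatase gene Ptpre (23 each), Fchsd2 and Fli1 (21 each), the splicing regulator gene Mbnl1 (19), and Arhgef3 and Cdk17 (18 each). The genes with the most primed regions were Foxp1 (67), the phosphodiesterase gene Pde4d (59), Cd47, the signal that protects cells from phagocytes (45), Ankrd11 and Sgms1 (41 each), Dock10 and Psd3 (40 each), the transcription factor gene Mef2c (36), Irf2 (35) and Mecom (34, as many as Runx1). Of these genes, all but Fchsd2, Fli1 and Mecom had both marks at the promoter. Genes with wide neighbourhoods can gather more regions under this rule, which was not tested.

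Enhancers described at 18 positions around 13 blood genes, named by their distance in kb from a start site, fell into all classes. The region within 2 kb of the named position was taken. Both marks were at 5: Lmo2 -25 (H3K27ac fold 33.0, H3K4me1 fold 7.80, chr2:103943348-103947813), Spi1 -14 (12.6 and 4.21), Runx1 23 (6.82 and 6.75, chr16:92802819-92803332), Tal1 40 (5.33 and 5.27) and Erg 85 (5.11 and 4.85). H3K27ac stood alone at Gata2 9.5 (7.31, chr6:88202968-88203479), Tal1 19 (5.55) and Hhex 1 (7.97), the last of which is a promoter region. H3K4me1 stood alone at 7: Gfi1b 16 (6.70), Gata2 -77 (6.04), Fli1 12 (5.31), Irf8 -50 (4.76), Cebpa 37 (4.69), Lmo2 -75 (4.01) and Tal1 -4 (3.10). The regions taken for Irf8 -50 and Cebpa 37 did not reach the named position and lay 0.489 and 0.712 kb from it. No region of either list lay at Irf8 56, Gata1 -3.5 or the far upstream element of Kit. Within the genes Gata2, Tal1 and Lmo2 the enhancers differed in class.

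The classes were then looked up in the mutant lists, which took no part in making them. Active distal regions recurred most: 88.6% (88.1 to 89.2%) had H3K27ac in at least 1 of the 5 mutant lists and 46.2% (45.4 to 47.1%) in all 5. Of distal regions with H3K27ac only, 54.9% (54.1 to 55.6%) and 19.7% (19.1 to 20.3%) did. Of primed distal regions, 32.3% (31.9 to 32.7%) had H3K27ac in at least 1 mutant list and 2.21% (2.09 to 2.34%) in all 5. By genotype, primed regions had H3K27ac in 15.3% (Flt3-ITD), 10.4% (NUP98-HOXD13), 12.4% (Runx1-het), 14.1% (Flt3-ITD/Runx1-het) and 15.2% (Flt3-ITD/NUP98-HOXD13). At promoters the shares in at least 1 list were 97.6% for H3K27ac only, 98.3% for both marks and 52.4% (50.5 to 54.3%) for H3K4me1 only. Region width bears on this lookup. Among distal regions of 300 to 600 bp, 72.6% (71.4 to 73.8%) with H3K27ac only and 75% (73.5 to 76.4%) with both marks recurred in at least 1 list, and in all 5 lists it was 24.4% (23.3 to 25.6%) and 18% (16.7 to 19.3%), so the order of these classes turned. For primed regions of this width it was 33.2% (32.6 to 33.8%) in at least 1 list. Peak strength bears on it too: with −log10 q of at least 5 in the wild-type lists, 95.5% (94.9 to 96.0%) of distal H3K27ac-only regions, 99.0% (98.6 to 99.3%) of those with both marks and 53.5% (52.8 to 54.2%) of primed regions had H3K27ac in at least 1 mutant list.

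**Figure D5:**
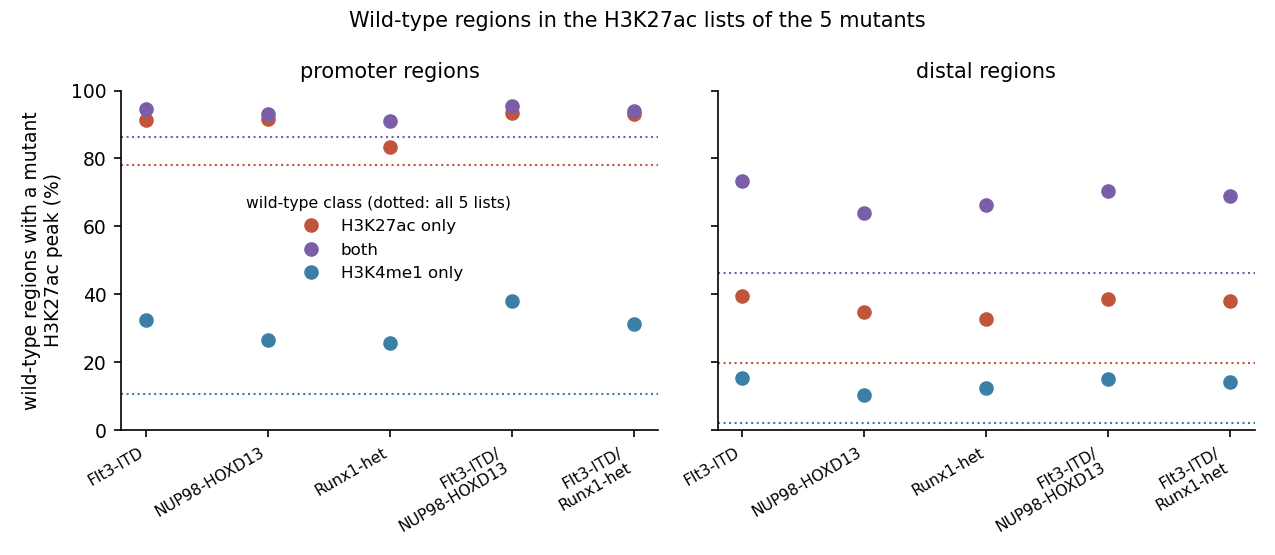
Share of wild-type regions of each class overlapped by an H3K27ac peak of each mutant list, in %, for promoter (left) and distal (right) regions. Dotted lines give the share found in all 5 mutant lists, which for distal regions is 46.2% with both marks, 19.7% with H3K27ac only and 2.21% with H3K4me1 only.

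At gene level, of the 1058 promoters with H3K4me1 only in wild type, 586 (55.4%) had H3K27ac in at least 1 mutant list, against 1619 of 12184 (13.3%) with neither mark. Over all 21840 genes, those acetylated in wild type included, the share was near that of H3K4me1 only, at 49.1% (10722). In all 5 mutant lists the shares were 14.7% with H3K4me1 only, 2.94% with neither mark and 37.5% over all genes. Promoters with H3K4me1 only that were acetylated in all 5 mutant lists included Csf3r, Il6ra, Clec9a, Eif2ak2 and Ifit3. Procr, Slamf1, Esam, Rag1, Ccr2, Cd14 and Ppbp were acetylated in none. The primed distal regions of highest H3K4me1 fold that had H3K27ac in all 5 mutant lists, picked after the values were seen, lay in introns near Dap (12), the proteasome subunit gene Psma6 (11.4), Coro2a, a coronin (11.1), the kinase gene Taok3 (10.8) and Prkag2, a subunit of AMP kinase (10.4).

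By the same rule, the wild-type classes differed from those of the mutants in the H3K27ac-only regions. Distal H3K27ac regions held H3K4me1 in 42.5% in wild type, and in 67.6% (67.0 to 68.2%) in Flt3-ITD, 68.4% (67.8 to 69.0%) in NUP98-HOXD13, 57.2% (56.5 to 57.8%) in Runx1-het, 71.7% (71.1 to 72.3%) in Flt3-ITD/NUP98-HOXD13 and 64.4% (63.8 to 64.9%) in Flt3-ITD/Runx1-het. The share of distal H3K4me1 regions that held H3K27ac was close in all 6 genotypes, 20.1% in wild type and between 19.5 and 21.1% in the mutants. With peaks of −log10 q of at least 5 in both lists, 41.1% (40.1 to 42.2%) of distal H3K27ac regions held H3K4me1 in wild type, 24.2% (23.3 to 25.2%) in NUP98-HOXD13, and 42.0 to 46.8% in the other genotypes. That threshold left 6884 H3K4me1 peaks in NUP98-HOXD13 and 19731 to 25000 in the other lists, and the part of list length in these shares was not tested. The wild-type list also held the shortest H3K27ac-only distal regions, with a median of 266 bp against 334 to 494 bp. Whether the genotypes differ beyond the spread between mice cannot be told from 1 pooled list each.

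Chromosome X carried little H3K4me1 beside its H3K27ac. Of its 288 promoter H3K27ac regions in wild type, 13 (4.51%, 2.66 to 7.57%) held H3K4me1, against 27.1% (26.3 to 28.0%) of 10915 autosomal ones. Of distal H3K27ac regions, 49 of 277 (17.7%, 13.6 to 22.6%) did, against 42.7% (42.1 to 43.3%) on autosomes. The 5 mutant genotypes showed the same direction, with promoter shares of 4.73 to 12.2% on chromosome X and 41.7 to 58.0% on autosomes. Xist, whose RNA silences 1 X chromosome in females, had an H3K27ac peak and no H3K4me1 peak at its start site in wild type. Chromosome Y had 0 H3K27ac peaks and 3 H3K4me1 peaks, 0 of them within 1 kb of a protein-coding start site. The cause of the difference was not tested.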

How the data were processed

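H3K27ac and H3K4me1 were mapped in sorted HSCs and HPCs of P21 mice, and 1 peak list per genotype and mark was used, called on pooled samples. Per the submitters' processing notes, the authors used BWA, MACS2 and build mm10 (GRCm38); no source used here gives tool versions. For every peak, the deposited lists hold a score, a ratio (the fold enrichment at the summit), −log10 p, −log10 q and the summit position. The deposited score and −log10 p served no main result, and no source used here states the threshold of the deposited peaks. The lists hold fewer peaks than their highest peak number (39.3% for H3K27ac and 52.3% for H3K4me1 in wild type), so peaks were removed before deposit. Depth is not given, so no depth-based limit was set.

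Peaks were merged at 1 bp with Python 3.11.15 and pandas 2.3.3 scripts, and start sites came from the GENCODE M21 basic annotation (21840 protein-coding genes). Regions went to the nearest start site within 50 kb. The classing was tested on simulated data. The planned summit windows of 300 bp were replaced by promoter sequences from RefSeq and transcript starts from GENCODE, because no genome sequence was used here. No group was tested against another.

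Named were the 5 strongest regions per class, the 10 genes with the most active or primed regions, for each list the members with the most distal regions or with a promoter state, the reported enhancers and the Hox genes. Members and lists were chosen with earlier results of these data known. Other genes named above, such as further list members, were chosen after their values were seen. Some list members that the rule would name are not reported here. The alternatives were 8 settings of the classes and a distance of 100 kb, and the genotype shares with −log10 q of at least 5 and the lookup of regions of 300 to 600 bp were added after the data were seen.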

Additional observations from a re-analysis of the deposited data

How the results depend on the processing

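Values below move from those of the report by more than 1.5 times (counts) or beyond the 95% Wilson interval (shares). No paired analysis was possible because each group is 1 pooled list and no result comes from a test, and for the same reason no replicate could be left out. Windows of 500 bp and windows at H3K4me1 summits were not run, since no genome sequence was used here. Limits of depth cannot be given.

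Where the marks had to cover 0.5 of the shorter, H3K4me1 was held by 20.8% of promoter and 37.6% of distal H3K27ac regions, and H3K27ac by 17.7% of distal H3K4me1 regions. With peaks within 500 bp merged, H3K27ac-only regions fell to 4328 (promoter) and 11149 (distal) and promoter H3K4me1-only regions to 1780, and the 3 shares were 48.4, 51.6 and 24.4%. With −log10 q of at least 5, regions with both marks numbered 1135 (promoter) and 3726 (distal), H3K4me1-only regions 1017 and 18221, and distal H3K27ac-only regions 5329, with shares of 16.2, 41.1 and 17.0%. H3K27ac then recurred in a mutant list in 95.5% of distal H3K27ac-only regions, 99.0% of those with both marks and 53.5% of primed regions. The distal share with H3K4me1 was then 43.1% in Runx1-het, 46.8% in Flt3-ITD, 42.0% in their combination, 45.2% in Flt3-ITD/NUP98-HOXD13 and 24.2% with NUP98-HOXD13 alone.

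With the H3K4me1 list shortened to 43363 peaks, H3K4me1-only regions numbered 1431 (promoter) and 27880 (distal), the 3 shares were 19.3, 32.6 and 26.4%, and recurrence 58.8, 90.7 and 39.3%. With 2 kb from a start site, promoter H3K4me1-only regions numbered 6469, and the promoter share of H3K27ac regions and the distal share of H3K4me1 regions were 28.4 and 20.4%. With start sites of all annotated genes they were 4601, 29.1 and 19.6%. With peaks as the unit, 45.4% of distal H3K27ac peaks met H3K4me1. In regions of 300 to 600 bp, recurrence was 72.6, 75 and 33.2%. Using autosomes alone moved no class count or share beyond these limits. The cause of each change was not tested, beyond the smaller number of peaks under the stricter thresholds. In each setting run on regions, distal H3K4me1-only regions remained the most numerous class. At 100 kb, 26 of 27 shares by gene group stayed within their interval at 50 kb, and zinc finger genes moved to 21.3%.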

Other observations

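Zinc finger genes of the Zfp group, a large family of which many members bind and silence transposons, held an intermediate place. Promoter H3K27ac stood at 236 of 394 (59.9%, against 39.4% of all genes), in 161 without H3K4me1 and in 75 with it. Over all genes, 3474 of 8598 acetylated promoters also had H3K4me1. Of the distal H3K4me1 regions of the Zfp group, 16.9% (14.2 to 20.1%) held H3K27ac, against 19.8% over all genes. Ribosomal protein genes, nearly all acetylated, had H3K4me1 beside it in 20 of 79, and the distal share was 17.0% (11.1 to 25%). Acetylated histone gene promoters had H3K4me1 in 31 of 52, with a distal share of 10.7% (5 to 21.5%). Of the 12 olfactory receptor promoters with H3K27ac, 10 also had H3K4me1. Distal shares were 12.6% (7.38 to 20.8%) for olfactory receptors, 22.2% (9 to 45.2%) for vomeronasal receptors and 25% (11.2 to 46.9%) for keratins. The interval of each family in this paragraph includes the 19.8% of all genes.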
